A study of Mus musculus with 6 samples.

Results

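The 6 genes described here set how thyroid hormone acts on a cell, and they were followed in the inner ear of mice with and without Pou3f4: the deiodinases Dio2 and Dio3, the receptors Thra and Thrb, and the transporters Slc16a10 and Slco1c1. They were taken by name from a table of 55401 genes, and all 6 were found there once each. Bulk RNA sequencing had been made of 3 wild-type libraries (WT) and 3 libraries of the genotype written as Pou3f4y/-, a mutation of the X-linked POU-domain factor of the otic mesenchyme (Pou3f4 KO, below KO). The labels give inner ear as the tissue and all cells as the cell type, name no treatment agent, and state neither age, sex, strain, the part of the gene that is mutated, nor whether libraries came from separate animals. Values of p therefore measure only the spread between these libraries, part of which may be technical.

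Thyroid hormone reaches the cochlea mainly as the prohormone thyroxine, which membrane transporters carry into cells. Dio2, a selenoenzyme, converts it to the active hormone triiodothyronine, and Dio3, also a selenoenzyme, inactivates both forms. The active hormone binds nuclear receptors made from Thra and Thrb, which act with retinoid X receptors on target genes. In mice, loss of Dio2 or of Thrb impairs hearing, and the hormone is needed for the timely maturation of the cochlea after birth.

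Total counts per library ranged from 18409409 to 23323953. Levels are in CPM, reads per 1000000 after TMM scaling of library sizes. Where no read was seen, 3 reads remain possible from counting error alone, which is 0.131 to 0.168 CPM here. Pou3f4 stood at 58.3 to 114 CPM in WT and 1.22 to 1.96 CPM in KO, so the targeted gene matched every label. Fibrocyte, hair cell, neuron and Schwann cell markers were all detected, as were skeletal muscle, bone and red cell genes, and no marker of the lists used was at 0 in all 6 libraries. WT replicate 1 stood apart from the other WT libraries in several genes below. Xist was present in WT replicates 1 and 2 and KO replicates 2 and 3, and Y-linked reads in WT replicate 3 and KO replicate 1, so each genotype held libraries of both kinds although the KO genotype is written with a Y.

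Of the 6 genes, 5 had enough reads to be tested and Dio3 did not. With edgeR 0 of the 5 passed an adjusted p of 0.05, where 0.396% of the 19687 genes tested did. At an unadjusted p under 0.05 there were 2, Dio2 and Thrb, against 19.6% of all genes. DESeq2 called the same pair lower in KO (5.43% of all genes were called lower) and limma-voom called 0 (0.406% of all genes). All 5 fold changes lay below 0, with a median of −0.45 on the log2 scale, where 51% of all genes lay below 0 with a median of −0.0070. Among the 5, Slc16a10 was level between genotypes, at −0.0037 (SE 0.36), and its sign turned in several settings, such as upper-quartile scaling (0.0062) and limma-voom (0.10). Dio2 and Thrb were also the tested members whose KO libraries all lay below every WT library, as 12.7% of all genes did.

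**Figure D1:**
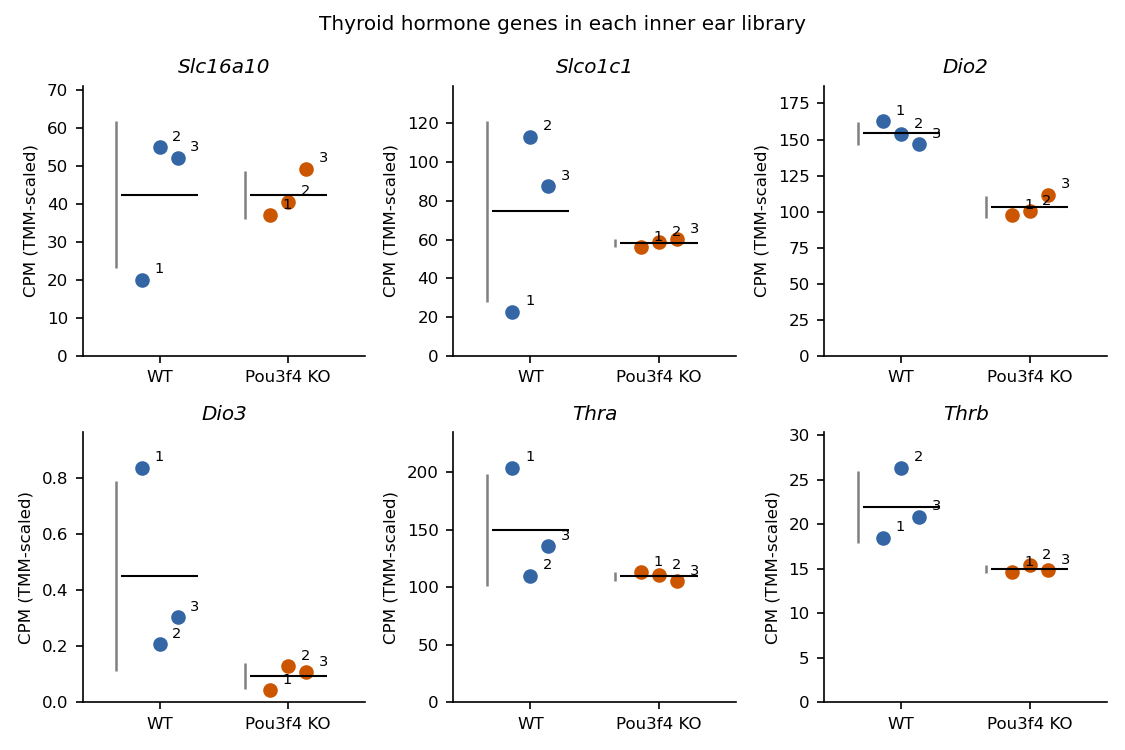
Level of each gene in CPM (vertical axis, from 0) in the 3 WT and 3 Pou3f4 KO libraries; points carry the replicate number, the black line is the group mean and the grey bar 1 SD either side (cut at 0). The groups are separate for Dio2, Thrb and the sparse Dio3, while WT replicate 1 is the lowest library for both transporters and the highest for Thra and Dio3.

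Dio2, the activating enzyme (ENSMUSG00000007682, mm10 chromosome 12, 90724552 to 90738438, minus strand), had the most even values of the 6 genes in WT. It stood at 163, 154 and 147 CPM in WT replicates 1 to 3 and at 97.4, 100.4 and 112 CPM in KO replicates 1 to 3. The lowest WT library thus lay above the highest KO library. WT averaged 154 ± 7.97 CPM and KO 103 ± 7.56 CPM (SD, n = 3 for both). On the log2 scale KO differed from WT by −0.58 (SE 0.09, edgeR adjusted p = 0.0573), which ranked 116th of all genes by p and just missed the threshold. It stayed between −0.54 and −0.64 when any 1 library was left out, and passed without WT replicate 1 (adjusted p = 0.0157) or WT replicate 2 (adjusted p = 0.0402, where 2.37% of all genes were called lower) and with DESeq2 (adjusted p = 1.27e-06). The adjusted p was 0.143 without WT replicate 3, 0.289 to 0.358 without any 1 KO library and 0.145 with Xist as a term. In bulk tissue, fewer cells of a type and less RNA per cell cannot be told apart.

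Dio2 is known from rodent cochlea as a gene of connective tissue, so the fibrocyte list is given beside it. The 9 fibrocyte markers summed to 1522, 2925 and 2794 CPM in WT replicates 1 to 3 and 1087 to 1120 CPM in KO. Of the 9, 2 (Car3 and Otor) were called lower, where 0.183% of all genes were. Leaving out WT replicate 1, the number was 5, against 5.46% of all genes. The order of this sum differed from that of Dio2 within WT, since replicate 1 had the lowest fibrocyte sum and the highest Dio2 level. Not every member followed the sum. Tbx15 stood at 64.2, 21.5 and 45.9 CPM and Prrx2 at 34.8, 13.9 and 13.7 CPM in WT replicates 1 to 3. Both were named with their values in view, and the other members were lowest in replicate 1 among the WT libraries. Between genotypes, 7 of the 9 fold changes lay below 0 and 2 above. Those above were Tbx18 (0.40, SE 0.15, adjusted p = 0.210, edgeR) and Slc4a11 (0.13, SE 0.31). For Tbx18 each KO library exceeded all WT libraries. The 7 cartilage markers summed to 8652 to 9571 CPM in WT and 5199 to 6020 CPM in KO. Of these, 2 were called lower (Col2a1 and Col9a1). Col2a1 weighed most in the sum, with means of 6020 CPM among WT and 2819 CPM among KO libraries. Fold changes of 6 lay below 0, such as Comp (−0.15, SE 0.34). Col11a2 rose instead (0.28, SE 0.14, adjusted p = 0.313, edgeR), and each of its KO libraries exceeded all WT libraries. The 9 osteoblast markers summed to 11161 to 15212 CPM in WT and 17613 to 18957 CPM in KO, with Spp1 called higher. The part of any of these lists in the Dio2 value was not tested. The genes whose log2 CPM followed Dio2 most closely over the 6 libraries were Itga8, an integrin subunit (Pearson r = 0.997), Nkd1, an inhibitor of WNT signalling (r = 0.995), and Znhit6 (r = 0.991). Their fold changes were −0.48 to −0.62 on the log2 scale, without overlap between groups, and their adjusted p (edgeR) lay between 0.0556 and 0.0832. They were picked for following Dio2 over these same libraries, so a like separation of the groups comes with the choice.

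Dio3, the inactivating enzyme (ENSMUSG00000075707, chromosome 12, 110279068 to 110281097, plus strand), was barely detected. It held 15, 4 and 6 reads in WT replicates 1 to 3 and 1, 3 and 2 reads in KO replicates 1 to 3. All KO libraries were at or under the limit that a count of 0 allows, and 15 of the 25 WT reads came from 1 library. Pooling libraries gave 0.441 CPM for WT and 0.0932 CPM for KO, a ratio of 4.73 with an exact 95% Poisson interval of 1.89 to 14.1 that covers counting error only. With no filter on low counts the fold change was −2.16 (SE 0.74, adjusted p = 0.246, edgeR). Dio3os, the non-coding gene that starts on the other strand next to Dio3 and shares no exon bases with it, held 16, 4 and 8 reads in WT and 0, 3 and 0 in KO.

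Set against each other, reads of the activating enzyme far outnumbered those of the inactivating one. Dio3 made up 0.512% of the reads of both in WT replicate 1 (exact Clopper-Pearson 95% interval 0.287% to 0.844%), 0.135% and 0.207% in WT replicates 2 and 3, and 0.0447%, 0.130% and 0.0967% in KO replicates 1 to 3. Per exon length, the log2 ratio of Dio2 to Dio3 was 6.08, 8.01 and 7.39 in WT and 9.61, 8.07 and 8.49 in KO. The groups did not overlap, but the intervals of the shares in WT replicate 2 and KO replicate 2, with 4 and 3 Dio3 reads, overlapped. On average the log2 ratio was 7.16 ± 0.98 in WT and 8.72 ± 0.80 in KO (SD, n = 3 each).

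Thra (ENSMUSG00000058756, chromosome 11, 98740638 to 98769006, plus strand) is the widely expressed receptor gene, and its reads include an isoform that does not bind the hormone, which a count per gene cannot separate. It stood at 204, 110.1 and 136 CPM in WT replicates 1 to 3 and at 113, 111 and 105 CPM in KO replicates 1 to 3. The groups overlapped, because WT replicate 2 lay among the KO libraries, while WT replicate 1 stood far above all others. The fold change was −0.45 (SE 0.22, adjusted p = 0.304, edgeR) and shrank to −0.18 without WT replicate 1 (adjusted p = 0.303). The 3' end of Thra overlaps Nr1d1, a clock repressor gene on the other strand, over 263 bases or 5.7% of the Thra exons. Nr1d1 held 2761, 967 and 1419 reads in WT and 1080, 1093 and 778 in KO, and so was also highest in WT replicate 1. Whether overlapping reads were assigned by strand is not given in the sources used here, and the part of shared reads was not tested. Phb2, Slc19a2 and Adh1 followed Thra most closely (r = 0.998 to 1.00 over 6 libraries). All had their highest level in WT replicate 1, which comes with the way they were picked.

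Thrb (ENSMUSG00000021779, chromosome 14, 17660261 to 18038090, plus strand), the receptor gene whose loss causes deafness in mice, was expressed at a lower level. It stood at 18.5, 26.3 and 20.8 CPM in WT replicates 1 to 3 and at 14.6, 15.4 and 14.8 CPM in KO replicates 1 to 3. The KO libraries were nearly equal and all lay below the lowest WT library. The means were 21.9 ± 4.02 and 14.9 ± 0.435 CPM (SD, n = 3 for both), and the change of −0.55 on the log2 scale (SE 0.15) had an edgeR adjusted p = 0.148. Without WT replicate 1 the gene was called lower (−0.67, adjusted p = 0.0267), as it was by DESeq2 (adjusted p = 0.0278). Leaving out WT replicate 2, its highest library, gave −0.39 (adjusted p = 0.133). Neuron markers summed to 971 to 2275 CPM in WT and 831 to 1101 CPM in KO. Of the 8, edgeR called 1 lower (Thy1), where 0.183% of all genes were called lower. Without WT replicate 1, 5 of the 8 were called lower, where 5.46% of all genes were. With DESeq2 the number was 2, where 5.43% of all genes were called lower. Markers of the sensory epithelium, where Thrb is known to be expressed in rodents, summed to 251 to 331 CPM in WT and 280 to 335 CPM in KO. Of these 8, edgeR called 0, and 1 had an unadjusted p under 0.05, against 19.6% of all genes. The number called was also 0 with DESeq2 or without WT replicate 1. The part of these cells in the Thrb value was not tested. Tspan15, a tetraspanin (r = 0.996), Faah, which breaks down endocannabinoids (r = 0.995), and Rasal2 (r = 0.994) followed Thrb most closely.

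Because Dio2 and Thrb separated the groups in the same direction, the sequences around their start sites are shown, from RefSeq on GRCm38.p6, with 250 bases before and 50 after the start. The Dio2 window is chr12:90738989-90739288 on the minus strand, and its capitals mark the palindrome TGACGTCA of the cAMP response element, 95 bases before the start. The Thrb window is chr14:17660710-17661009 on the plus strand, the upstream of 2 RefSeq starts, and its capitals mark AGGTCA, the hexamer bound by nuclear receptors, 184 bases before the start.
Dio2: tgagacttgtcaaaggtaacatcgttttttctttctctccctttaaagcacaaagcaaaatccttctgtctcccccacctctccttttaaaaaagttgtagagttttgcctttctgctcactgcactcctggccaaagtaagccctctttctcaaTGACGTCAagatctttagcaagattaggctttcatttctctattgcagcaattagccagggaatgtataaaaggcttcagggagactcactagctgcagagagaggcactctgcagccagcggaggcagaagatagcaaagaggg
Thrb: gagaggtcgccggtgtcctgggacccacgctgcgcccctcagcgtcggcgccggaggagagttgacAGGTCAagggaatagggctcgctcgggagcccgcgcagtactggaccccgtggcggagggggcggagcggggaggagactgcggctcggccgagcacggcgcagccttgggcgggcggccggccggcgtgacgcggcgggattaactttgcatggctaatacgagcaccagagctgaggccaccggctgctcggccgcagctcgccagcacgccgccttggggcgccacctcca
Both strands were searched for TGACGTCA, AGGTCA and the POU octamer ATGCAAAT, and the motifs found did not overlap each other. TGACGTCA occurs in 1.79%, AGGTCA in 16.3% and ATGCAAAT in 1.74% of the 32851 RefSeq windows of this length. The 6 windows found for 5 of the 6 genes held no other match, which says only that these letters are not in these windows. The RefSeq start of Dio2 lies 600 bases outside the gene model of the deposited table, so reads of that first stretch may be uncounted.

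Slc16a10 (ENSMUSG00000019838, chromosome 10, 40033532 to 40142258, minus strand), a carrier of aromatic amino acids and thyroid hormone, showed no separation of the genotypes. It stood at 20.1, 55.0 and 52.3 CPM in WT replicates 1 to 3 and at 37.1, 40.7 and 49.4 CPM in KO replicates 1 to 3. The KO libraries lay between the low WT replicate 1 and the other WT libraries. The means were 42.5 ± 19.4 and 42.4 ± 6.31 CPM (SD, n = 3 for both), so the log2 fold change was −0.0037 with an SE of 0.36 (edgeR adjusted p = 0.996). Without WT replicate 1 it was −0.35 (adjusted p = 0.111), and its sign was not stable across settings. The nearest genes in pattern were Btnl10 (r = 1.00), the chemokine receptor Cxcr4 (r = 0.998) and Kel, the Kell blood group antigen of red cells (r = 0.998). The 6 red cell markers summed to 1974, 7307 and 6407 CPM in WT replicates 1 to 3 and to 1915, 2383 and 2997 CPM in KO replicates 1 to 3, so they too were low in WT replicate 1 and, within KO, highest in replicate 3. None of the 6 was called by edgeR, and 2 had an unadjusted p under 0.05, against 19.6% of all genes. DESeq2 called 1 lower (5.43% of all genes were). Without WT replicate 1 all 6 were called lower, with a median of −1.48, where 5.46% of all genes were called lower. Their part in the Slc16a10 levels was not tested.

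Slco1c1 (ENSMUSG00000030235, chromosome 6, 141524368 to 141570177, plus strand), a thyroxine transporter best known from the endothelium of the blood-brain barrier, varied most among WT libraries of the 5 tested genes. It stood at 22.9, 113 and 87.6 CPM in WT replicates 1 to 3 and at 56.2, 58.6 and 60.2 CPM in KO replicates 1 to 3. The KO libraries were close to each other and lay between WT replicate 1 and the other WT libraries. The means were 74.6 ± 46.5 and 58.3 ± 2.01 CPM (SD, n = 3 for both), and the fold change was −0.36 (SE 0.50, edgeR adjusted p = 0.725). It moved with the WT libraries and with the method: without WT replicate 1 the gene was called lower (−0.80, SE 0.11, adjusted p = 0.0152), while without WT replicate 2 the change was 0.077 (adjusted p = 0.943), and limma-voom gave −0.077 with all 6 libraries. Without WT replicate 1, 3 of the 5 tested genes were called lower (Slco1c1, Dio2 and Thrb), where 5.46% of all genes were.

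Markers of endothelium and of brain glia are given beside Slco1c1. The 10 barrier endothelium genes summed to 549 CPM in WT replicate 1, the highest of the 6 libraries. Their sum was 410.5 and 408 CPM in WT replicates 2 and 3 and 415 to 444 CPM in KO. By edgeR 0 of 10 were called, and 3 had an unadjusted p under 0.05, against 19.6% of all genes. DESeq2 called 2 lower, against 5.43% of all genes. Without WT replicate 1, edgeR called 2 lower (Mfsd2a and Slc2a1), where 5.46% of all genes were, and 1 higher (Cdh5). In Mfsd2a, Abcb1a and Slc2a1 every KO library lay below every WT library, as for 12.7% of all genes. The members differed. Pecam1 and Cdh5, which mark all endothelium, stood at 177 and 152 CPM in WT replicate 1. They stood at no more than 87.3 and 109 CPM in the other WT libraries. In KO Pecam1 stood at 92.6 to 103 CPM and Cdh5 at 139 to 155 CPM, so Cdh5 in WT replicate 1 lay within the KO range. Slc22a8, a barrier transporter, stood instead at 4.805, 9.64 and 9.15 CPM in WT and at 6.96, 9.37 and 6.38 CPM in KO, lowest in WT replicate 1. Mfsd2a, Ocln and Abcb1a were also lowest in replicate 1 among the WT libraries. Cldn5 went the other way, at 42.7, 35.5 and 28.2 CPM in WT replicates 1 to 3. Slc2a1 was nearly level there, at 41.0, 41.2 and 44.1 CPM. These genes were picked with their values in view. The 8 genes of the brain glia and choroid plexus list summed to 156, 335 and 407 CPM in WT replicates 1 to 3 and to 205, 263 and 220 CPM in KO, so this sum, like Slco1c1, was lowest in WT replicate 1, with KO between it and the other WT libraries. The choroid plexus genes of the list, named with their values in view, differed from the sum. Folr1 stood at 1.12, 0.573 and 0.559 CPM in WT, highest in replicate 1. Ttr was lowest in WT replicate 1 but highest in KO replicate 3, at 33.9 CPM. With edgeR 0 of the 8 were called (0 at an unadjusted p under 0.05, 0 with DESeq2). Without WT replicate 1, 2 were called lower, where 5.46% of all genes were. The part of these cells in the Slco1c1 levels was not tested. Slco1a4, another organic anion transporter, was picked with its values in view. It stood at 20.7, 53.7 and 43.4 CPM in WT and at 37.5, 37.9 and 39.8 CPM in KO, in the same order of libraries as Slco1c1. The genes nearest to Slco1c1 were the glyoxalase Glo1 (r = 0.999), the potassium channel Kcna4 (r = 0.998) and basigin, Bsg, a chaperone of monocarboxylate transporters (r = 0.996). With 6 libraries and 19687 genes, high correlations of this kind are a description of these libraries only. For the genes nearest to the transporters r was 0.988 to 0.999 without WT replicate 1. Between the transporters r was 0.96, and 0.83 without WT replicate 1.

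**Figure D2:**
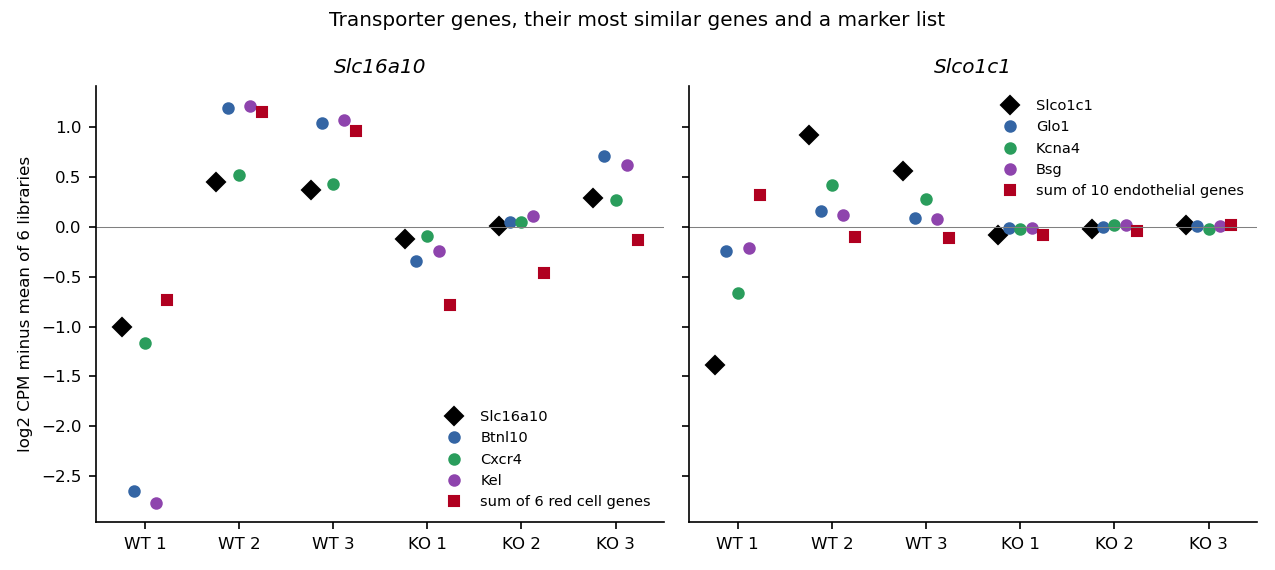
log2 CPM minus the mean of the 6 libraries (vertical axis) for Slc16a10 and Slco1c1 (black diamonds), the 3 genes most like each (circles) and a marker list (red squares: red cell genes on the left, endothelial genes on the right), by library. Both transporters are lowest in WT replicate 1, as is the red cell sum among WT libraries, while the endothelial sum is highest there.

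Levels between genes can be set side by side only per length. In CPM per kb of merged exon, the means in KO were 23.8 ± 0.858 for Thra, 17.7 ± 1.30 for Dio2, 11.2 ± 0.388 for Slco1c1, 5.76 ± 0.857 for Slc16a10, 2.02 ± 0.0588 for Thrb and 0.0464 ± 0.0223 for Dio3 (SD, n = 3 each). No neighbours in that order overlapped among the KO libraries. In WT the means were 32.5 ± 10.5, 26.6 ± 1.37, 14.4 ± 8.98, 5.77 ± 2.64, 2.96 ± 0.543 and 0.222 ± 0.167 in the same order of genes, and the neighbours Thra and Dio2, Slco1c1 and Slc16a10, and Slc16a10 and Thrb overlapped between libraries. Within single libraries the order was the same in 5 of 6, and in WT replicate 2 Dio2 lay above Thra. Thra thus exceeded Thrb and Dio2 exceeded Dio3 in every library. Merged exons include those of rarely used transcripts, so a level per kb can be too low for genes with many.

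**Figure D3:**
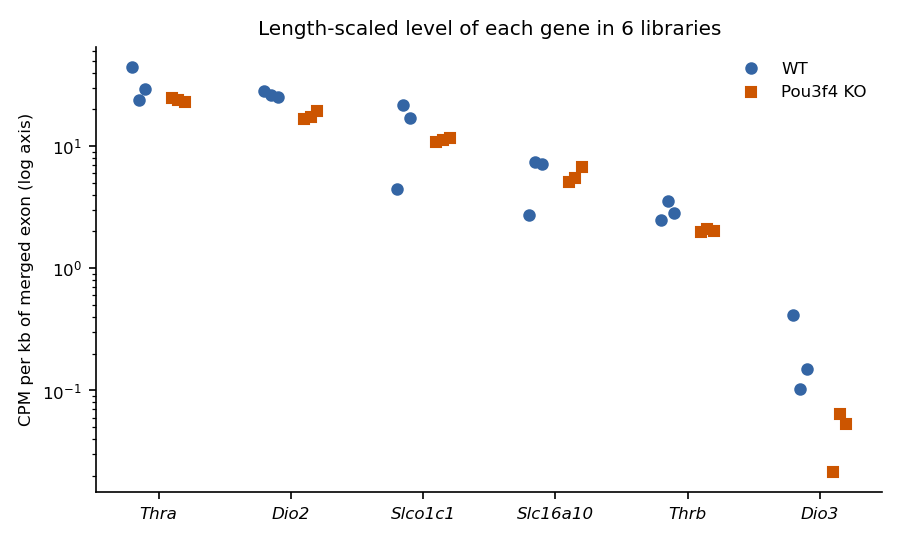
CPM per kb of merged exon (log axis) for the 6 genes, ordered by WT mean, in the WT (circles) and Pou3f4 KO (squares) libraries. The levels run from 44.2 for Thra in WT replicate 1 to 0.0214 for Dio3 in KO replicate 1.

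Other genes of hormone entry, binding, activation and receptor partnership were taken from a list of 22, of which 21 were tested. Slc7a5, the light chain of the amino acid and thyroid hormone transporter LAT, was the 1 gene called, and it was lower in KO (0.183% of all genes were called lower). It stood at 83.1, 82.6 and 81.3 CPM in WT and at 59.0, 58.6 and 60.8 CPM in KO, with no overlap and little spread in either group. Its fold change was −0.47 (SE 0.06, adjusted p = 0.049, edgeR), and the size held at −0.46 to −0.48 without any 1 library. The adjusted p rose to 0.143 without WT replicate 3 and to between 0.271 and 0.357 without any 1 KO library, where edgeR called 0 genes in all. Slc3a2, the heavy chain that pairs with Slc7a5, stood at 128 ± 19.7 and 109 ± 1.65 CPM (adjusted p = 0.326). Of the 21 genes, 13 lay below 0 in fold change, and the median was −0.10.

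The corepressor Ncor1, which silences target genes when the receptor has no hormone, averaged 143 ± 12.1 CPM among WT and 158 ± 17.6 CPM among KO libraries. Tbl1x, a subunit of the corepressor complex, stood at 94.2 ± 10.7 and 104 ± 3.70 CPM. Neither passed (adjusted p = 0.511 and 0.437, edgeR). The other genes named from this list were chosen after their values were seen. Crym, a cytosolic protein that binds triiodothyronine, stood at 11.6, 6.98 and 6.20 CPM in WT and at 3.79, 4.18 and 4.49 CPM in KO (−0.99, SE 0.27, adjusted p = 0.144). The receptor partner Rxrg stood at 7.06 ± 4.01 and 2.00 ± 0.202 CPM (−1.81, SE 0.44, adjusted p = 0.127), and Tbl1xr1 at 72.0 ± 4.13 and 87.5 ± 4.46 CPM (0.28, SE 0.08, adjusted p = 0.150). Crym and Rxrg had no overlap between groups and their highest value in WT replicate 1. DESeq2 called Crym, Rxrg and Slc7a5 lower, with 0 higher (5.43% of all genes were called lower). Dio1, the third deiodinase, held too few reads to test, at 0.254 CPM or less in every library.

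Of 10 genes known from other mouse tissues to respond to thyroid hormone, 2 were called, both lower in KO (0.183% of all genes were). Fold changes of 8 lay below 0, and the median was −0.62, where 51% of all genes lay below 0 with a median of −0.0070. Me1, malic enzyme, a hormone target in liver, stood at 98.2, 89.0 and 83.3 CPM in WT and at 56.5, 55.6 and 53.2 CPM in KO, a 1.64-fold lower level (−0.71, SE 0.08, adjusted p = 0.049, edgeR). Dbp, a transcription factor of the clock output, stood at 32.6, 29.2 and 36.2 CPM and at 18.8, 18.4 and 18.4 CPM, a 1.76-fold lower level (−0.82, SE 0.11, adjusted p = 0.049). Neither showed overlap, although exons of Dbp overlap Sphk2 on the other strand over 539 bases. As for Slc7a5, both calls were lost without WT replicate 3 (adjusted p = 0.125 for Me1 and 0.136 for Dbp) or any 1 KO library (0.271 to 0.357), with fold changes of −0.66 to −0.76 for Me1 and −0.73 to −0.89 for Dbp.

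Klf9, a zinc finger gene induced directly by the hormone in brain, stood at 140.2, 93.8 and 104 CPM in WT and at 68.4, 79.9 and 78.5 CPM in KO (−0.57, SE 0.16, adjusted p = 0.150). Hr, the hairless corepressor, also a direct target in brain, stood at 33.97, 22.9 and 24.8 CPM and at 17.4, 15.9 and 18.4 CPM (−0.66, SE 0.17, adjusted p = 0.136). For both genes the KO libraries all lay below the WT libraries. Thrsp, a liver target named with its values in view, stood at 5.78 ± 1.79 and 2.31 ± 0.410 CPM (−1.32, SE 0.29, adjusted p = 0.104). The calcium pump Atp2a2 stood at 367 ± 44.6 and 297 ± 7.33 CPM (adjusted p = 0.193). The myelin gene Mbp, which is also in the Schwann cell list, stood at 1078, 2560 and 2657 CPM in WT and at 1051 to 1266 CPM in KO (adjusted p = 0.208), with WT replicate 1 among the KO libraries. In all, 6 of the 10 genes had KO libraries below all WT libraries (12.7% of all genes did). DESeq2 called 6 lower, against 5.43% of all genes. Without WT replicate 1 the number was also 6, against 5.46% of all genes, and the median was −0.44. Schwann cell markers summed to 4328 to 7882 CPM in WT and 3015 to 3441 CPM in KO. Of 7 tested, 4 were called lower, among them Pmp22, Prx and Erbb3, where 0.183% of all genes were. Without WT replicate 1 the number was 7, against 5.46% of all genes. Skeletal muscle markers summed to 4864, 105 and 8410 CPM in WT and 16.1 to 647 CPM in KO, with 0 called by edgeR and 0 by DESeq2. Of these markers, 1 had an unadjusted p under 0.05 (edgeR), against 19.6% of all genes. The part of these cell types in the response genes was not tested.

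**Figure D4:**
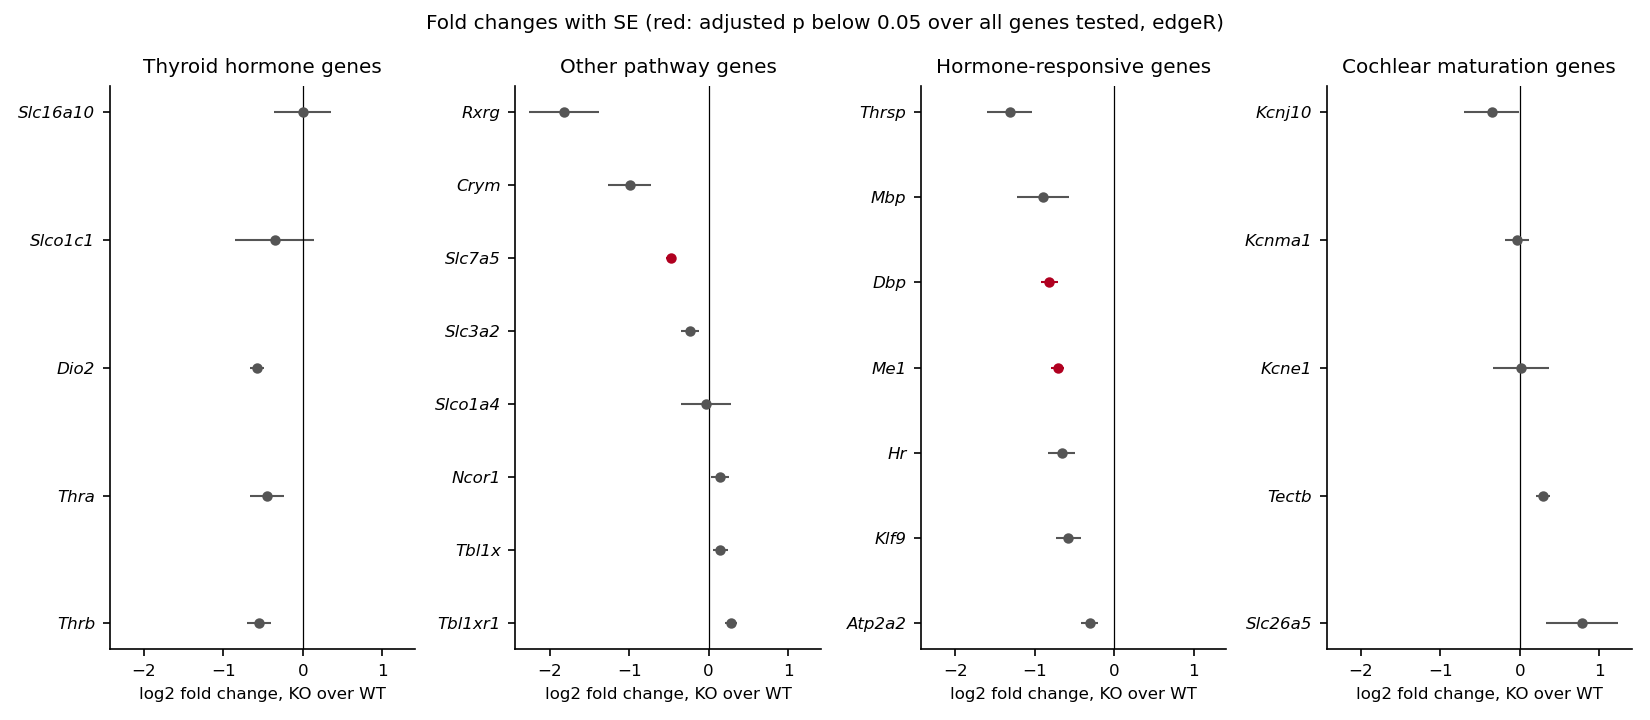
log2 fold change, KO over WT, with its SE (horizontal axis) for the 5 tested thyroid hormone genes and for those genes of the pathway, hormone-responsive and cochlear maturation lists that the text names; red points passed an adjusted p of 0.05 over all genes tested. Slc7a5, Me1 and Dbp passed, all lower in KO, and Dio2 at −0.58 did not.

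Cochlear genes whose expression is delayed or altered in hypothyroid or receptor mutant animals showed no common direction. Of 8 tested, edgeR called 0, and 2 had an unadjusted p under 0.05, as 19.6% of all genes did. DESeq2 called 1, lower in KO (5.43% of all genes were), and limma-voom 0. The fold changes had a median of −0.05, with 5 below 0. Tectb, a tectorial membrane protein, stood at 77.4 ± 6.05 and 94.9 ± 6.14 CPM (0.29, SE 0.09, adjusted p = 0.167), with every KO library above every WT library, as for 15% of all genes. The potassium channel Kcnj10 stood at 39.1, 85.4 and 113 CPM in WT and 61.6, 67.4 and 57.6 CPM in KO (adjusted p = 0.606), and Kcne1 at 12.2, 32.3 and 31.1 and at 24.3, 21.7 and 30.4 CPM (adjusted p = 0.987). Both were lowest in WT replicate 1, the library in which Slc16a10 and Slco1c1 were lowest. The channel subunit Kcnma1 stood at 38.7 ± 7.69 and 37.8 ± 2.22 CPM. Without WT replicate 1 Kcnj10 was called lower (−0.69, adjusted p = 0.0314), 1 of 2 genes of the list, where 5.46% of all genes were. Slc26a5, the outer hair cell motor, chosen with its values in view, stood at 0.313 to 0.814 CPM in WT and 0.697 to 1.14 CPM in KO.

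**Figure D5:**
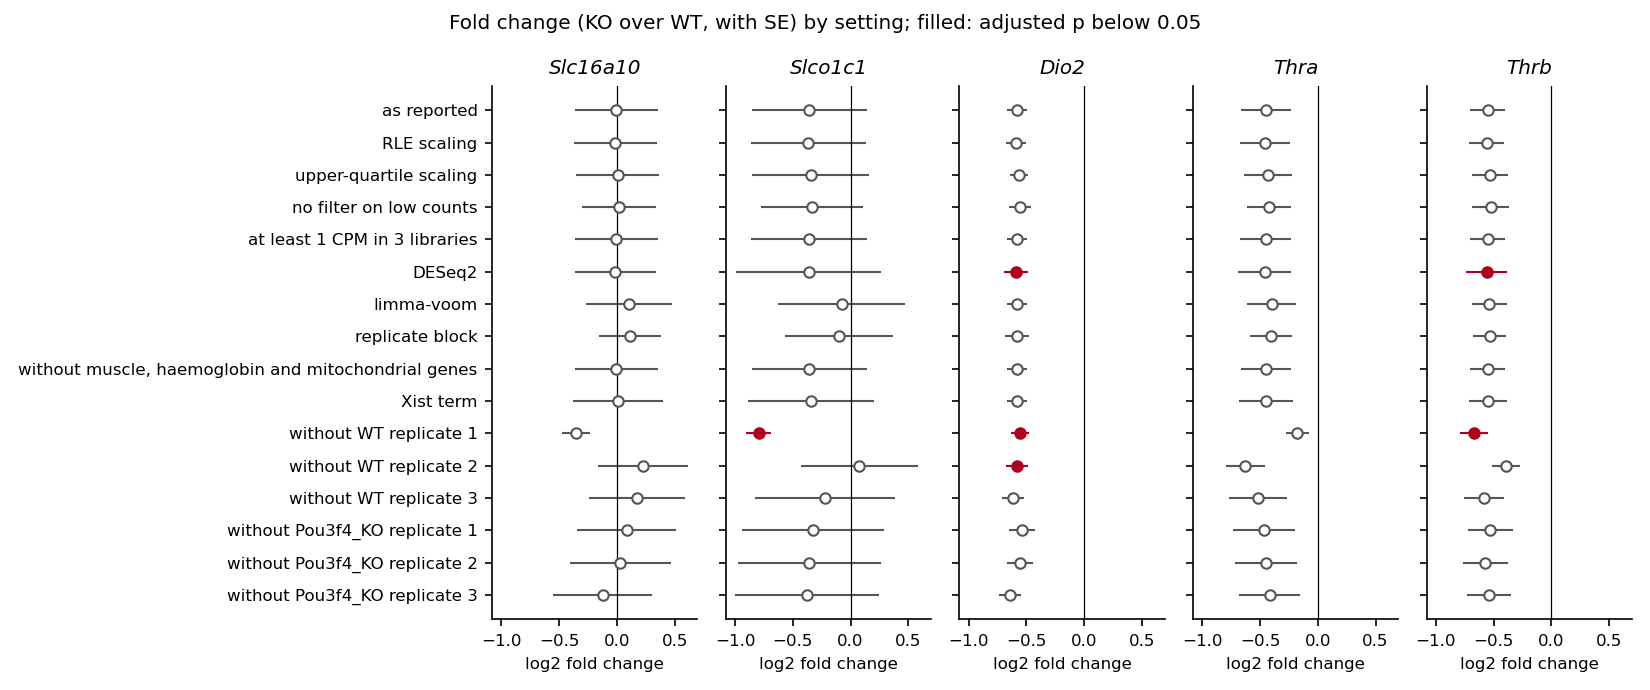
log2 fold change, KO over WT, with its SE (horizontal axis) for the 5 tested genes under each processing setting (rows); filled red points had an adjusted p below 0.05. Dio2 stays between −0.54 and −0.64 throughout, Thra and Thrb stay below 0, and the transporters move with WT replicates 1 and 2.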

How the data were processed

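TRIzol extraction and the TruSeq Stranded mRNA kit are recorded per the labels' protocols. Trimmomatic, HISAT2, Cufflinks and HTSeq and the build mm10 are named in the submitters' processing notes; the sources used here give no versions, annotation release or use of strand. Unnormalised read counts per gene were deposited by the authors and used without change. Genes were kept by filterByExpr (minimum count 10), scaled by TMM and tested by edgeR 4.0.16's quasi-likelihood F test (genotype alone, Benjamini-Hochberg over 19687 genes, threshold 0.05); R was 4.3.3. DESeq2 1.42.0 and limma 3.58.1 (voom) were alternatives. Correlations used log2 CPM (prior count 2). Exon lengths and overlaps came from GENCODE M21, with identical positions for 54784 of 55401 genes. Between any 2 libraries the chi-square of counts was at least 6.50 per degree of freedom, so none was a duplicate.

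The genes and lists were chosen with earlier results of these data known. Named were the 6 genes, Pou3f4, called list members, up to 4 other members of each pathway list by mean CPM, and the 3 properly named genes most correlated with each tested gene; others are marked as chosen after their values were seen. Some genes of the lists are not reported here by name.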

Additional observations from a re-analysis of the deposited data

How the results depend on the processing

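Without each library in turn, the log2 fold change ran from −0.64 to −0.54 for Dio2, −0.63 to −0.18 for Thra, −0.67 to −0.39 for Thrb, −0.35 to 0.23 for Slc16a10, −0.80 to 0.077 for Slco1c1 and −2.61 to −1.47 for the sparse Dio3, and the number of called genes from 0 to 3 of the thyroid hormone genes, 0 to 2 of the other pathway genes, 0 to 6 of the response genes, 0 to 2 of the cochlear genes and 0 to 1814 of all genes. The count over all genes was 1814 without WT replicate 1, 760 without WT replicate 2 and 0 without any 1 of the others (2087 to 3364 at an unadjusted p under 0.05). DESeq2 called Dio2 (−0.59) and Thrb (−0.56), 2 in all, with 1603 genes, 3 pathway genes, 6 response genes and 1 cochlear gene. The sign of Slc16a10 turned with upper-quartile scaling (0.0062), no filter (0.017), limma-voom (0.10), the replicate block (0.11) and the Xist term (0.0094), always within its SE. Response genes called were 1 with upper-quartile scaling; pathway genes called were 0 with no filter or limma-voom, where Slc7a5 had an adjusted p of 0.0677 and 0.0565. With Xist as a term 0 genes, 0 pathway genes and 0 response genes were called (3185 genes at an unadjusted p under 0.05). Replicate numbers did not pair the libraries (correlations of deviations −0.13, −0.29 and −0.19), and with the replicate block 1 gene was called, with 0 pathway and 0 response genes, Dio2 had an adjusted p of 0.220 and Slco1c1 a fold change of −0.098. The causes were not tested. The median over all genes moved by less than 0.1 under each scaling. Reads limit Dio3, and 3 libraries a group limit the rest, with a median coefficient of variation of 17.3% in WT and 7.69% in KO.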

Other observations

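Clock genes, chosen after their values were seen, set WT replicate 1 apart. Per1 stood at 83.9 CPM there and at 14.5 to 22.8 CPM in the other 5 libraries, Ciart at 13.5 against 1.00 to 2.39 CPM, Nr1d1 at 154 against 42.1 to 72.2 CPM and Tef at 174 against 85.1 to 115 CPM. Arntl, which codes for an activator of the clock, did not follow, at 21.1 CPM against 12.1 to 22.3 CPM. Dbp, one of the response genes called lower in KO, stood at 32.6 CPM in WT replicate 1, between WT replicates 2 and 3. The time of dissection is not in the labels.

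Dio3 lies at the end of an imprinted gene cluster on chromosome 12. Rian, Mirg, Meg3 and Dlk1 of this cluster, chosen after their values were seen, were expressed above it. Rtl1, also of the cluster, was not, with 4 reads in WT replicate 3 and 0 in every other library. The non-coding Rian stood at 21.7, 14.96 and 20.8 CPM in WT and 14.2, 13.7 and 10.5 CPM in KO, without overlap (−0.58, SE 0.19, adjusted p = 0.183, edgeR). Mirg stood at 8.72, 2.19 and 16.4 CPM in WT and 1.18, 3.22 and 0.757 CPM in KO, and Meg3 at 6.31, 2.87 and 10.9 and at 3.61, 6.80 and 3.62 CPM, with overlap in both. Dlk1, the growth factor gene at the other end, stood at 7.93, 2.61 and 4.12 CPM in WT and 3.09, 2.79 and 2.38 CPM in KO. Like Dio3, Dlk1 was highest in WT replicate 1, while Mirg and Meg3 were highest in WT replicate 3.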
